A study of Mus musculus with 9 samples.

Results

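Glycolysis and hypoxia response genes were followed as mouse embryonic stem cells (mESCs) became neurospheres, as a list of 32 genes led by *Ndrg1* and *Stc1*. The list was drawn up with results of these arrays known, including the values of *Ndrg1* and *Stc1*, so every value below is a description of these arrays and none was tested. All probes assigned to the gene symbols were taken, and 29 of the 32 genes had 1 or more of the 54 probes found, out of 19403 named genes and 46643 probes in all. *Gpi1*, *Eno1* and *Ankrd37* were without a probe. Of the 29 genes, 28 were above the detection level on at least 1 array and 26 on all 9 arrays.

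All samples were total RNA of G6B-2 cells (written B6G-2 in the paper), an mESC line from mouse blastocyst whose cells carry a green fluorescent protein, hybridized to Illumina MouseWG-6 BeadChips. mESCs were sampled on day of differentiation (DoD) 0, when leukemia inhibitory factor was withdrawn, and embryoid bodies (EBs) on DoD 2. EBs were then exposed from DoD 2 to DoD 6, for 4 days, to vehicle (C, 0.1% ethanol by the labels) or to retinoic acid (RA) at 1 nM (R9), 10 nM (R8) or 100 nM (R7), and were sampled on DoD 8. C, R8 and R7 cultures were moved to coated plates and sampled again as neurospheres at the last stage, which the paper calls DoD 36 and the labels call day 29, and which is called DoD 36 here. By the paper's methods, these cultures were in neural medium for the last part of that time. Stage, plating and medium therefore cannot be told apart between DoD 36 and the earlier arrays. Each of the 9 conditions was 1 array. By the paper's methods, 6 biological replicates were mixed before hybridization, so each array is a mean over cultures with no spread between them, from 1 cell line.

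Glycolysis turns glucose into pyruvate in the cytosol, and pyruvate is then either reduced to lactate or taken into mitochondria. Low oxygen stabilizes the alpha subunits of hypoxia-inducible factor (HIF), because the prolyl hydroxylases that mark them for degradation need oxygen, and HIF then raises transcription of glucose transporters, most glycolytic enzymes, lactate dehydrogenase and a set of secreted and stress genes. Pluripotent stem cells are known for a high glycolytic flux that falls on differentiation, and the interior of EBs and neurospheres is known to be poor in oxygen. Oxygen, glucose and lactate were not among the measurements here.

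HIF binds the letters ACGTG or GCGTG, and 5 promoters of members that changed in different ways are shown, with these letters on either strand in capitals. Each run is the 300 bases from 250 before to 50 after the annotated start, 5′ to 3′ on the strand of the gene, from RefSeq (GRCm38.p6). *P4ha2* had a greater signal at each later stage of the vehicle culture, *Pfkp*, *Pdk1* and *Ldha* were lower on DoD 36 than on DoD 8 in all 3 cultures, and *Egln1* was higher from DoD 2 onwards.
P4ha2, chr11:54100674-54100973, plus strand: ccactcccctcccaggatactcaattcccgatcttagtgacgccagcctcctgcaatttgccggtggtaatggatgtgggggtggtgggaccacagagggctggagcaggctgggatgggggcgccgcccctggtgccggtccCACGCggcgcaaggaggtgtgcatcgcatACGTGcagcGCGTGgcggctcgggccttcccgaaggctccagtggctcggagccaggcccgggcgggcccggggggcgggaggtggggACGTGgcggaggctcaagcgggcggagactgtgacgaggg
Pfkp, chr13:6648722-6649021, minus strand: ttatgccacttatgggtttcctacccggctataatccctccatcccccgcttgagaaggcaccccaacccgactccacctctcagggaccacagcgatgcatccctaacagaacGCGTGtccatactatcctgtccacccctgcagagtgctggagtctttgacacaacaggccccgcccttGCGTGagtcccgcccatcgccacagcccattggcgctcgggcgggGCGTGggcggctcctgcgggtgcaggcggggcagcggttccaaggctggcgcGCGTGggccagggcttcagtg
Pdk1, chr2:71872974-71873273, plus strand: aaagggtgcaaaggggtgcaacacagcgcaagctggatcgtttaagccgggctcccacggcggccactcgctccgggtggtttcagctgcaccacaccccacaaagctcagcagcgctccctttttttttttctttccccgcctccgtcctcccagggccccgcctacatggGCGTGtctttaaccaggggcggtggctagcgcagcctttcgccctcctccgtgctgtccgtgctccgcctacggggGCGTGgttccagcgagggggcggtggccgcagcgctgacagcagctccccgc
Egln1, chr8:124949205-124949504, minus strand: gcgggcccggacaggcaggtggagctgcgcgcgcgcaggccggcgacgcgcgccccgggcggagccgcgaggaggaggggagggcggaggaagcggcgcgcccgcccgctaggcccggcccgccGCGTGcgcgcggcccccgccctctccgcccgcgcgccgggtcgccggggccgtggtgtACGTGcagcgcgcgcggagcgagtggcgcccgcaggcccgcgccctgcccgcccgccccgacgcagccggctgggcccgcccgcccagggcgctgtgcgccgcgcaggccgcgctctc
Ldha, chr7:46845554-46845853, plus strand: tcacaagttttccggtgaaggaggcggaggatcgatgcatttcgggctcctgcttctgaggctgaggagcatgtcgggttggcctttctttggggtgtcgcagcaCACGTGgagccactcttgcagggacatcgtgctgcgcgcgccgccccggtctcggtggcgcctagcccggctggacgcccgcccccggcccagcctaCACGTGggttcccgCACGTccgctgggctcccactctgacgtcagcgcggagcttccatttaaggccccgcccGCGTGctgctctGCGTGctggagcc
*P4ha2* held 4 matches, *Pfkp* 4, *Pdk1* 2, *Egln1* 2 and *Ldha* 7. In *Ldha*, the palindrome CACGTG, which is also the E-box that Myc family factors bind, counted once on each strand. Of the 32 members, 29 had a promoter in the RefSeq table (*Ndrg1*, *Slc2a3* and *Stc1* did not), and 27 of these 29 genes (93.1%) held at least 1 match in at least 1 promoter, against 12628 of 27025 genes (46.7%) in the whole table. *Tpi1* and *Gpi1* held none in these windows. Counted by promoter, the share was 34 of 43 (79.1%) for members against 14380 of 32851 (43.8%). Among genes detected on all arrays the share was 23 of 24 members (95.8%) against 5332 of 7892 genes (67.6%). The list was drawn from pathways that HIF is known to raise, so a larger share was built in by the choice of genes. A match is a run of letters, not a measured binding site. No promoter without a match was printed, so the printed promoters cannot relate the letters to the direction of change.

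The deposited values were log2 values relative to a baseline of each probe, and signals were recovered from them, scaled between arrays to a common median and are called scaled signals below. A probe was called detected at a signal of at least 29.1, the upper end of background, and a gene was represented by its probe with the highest mean log2 signal. Differences are log2 ratios of scaled signals. A gene is called higher or lower when the difference is at least 2-fold, that is 1.00 or more on the log2 scale in either direction, and a gene below the detection level on 1 of the 2 arrays has only a bound ("at least"). As a yardstick of size, probes differed between R9 and C on DoD 8 with a robust standard deviation (SD) of 0.297 on the log2 scale, from 0.577 at scaled signals of 52.7 to 74.2 down to 0.15 above 3908. This yardstick includes any effect of 1 nM RA. The 9 arrays had 20737 to 23008 probes detected, and their upper background was 24.7 to 32.2 except for 56.0 on DoD 36 R8 and 77.6 on DoD 36 R7. The levels of 10 members (*Slc2a1*, *Slc2a3*, *Hk2*, *Pfkl*, *Aldoa*, *Tpi1*, *Gapdh*, *Pgk1*, *Pkm* and *Ldha*) are the lowest that the deposited values allow. Their differences are not affected by this, but the highest signal recovered on an array was 22012 on DoD 2 and 36469 to 59489 on the other 8 arrays, so a ceiling on the brightest probes of DoD 2 was not tested.

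The members split along the time course. From DoD 0 to DoD 2, 10 of 28 measured members were at least 2-fold higher (6.07% of 12570 genes were) and none was lower (4.74% of genes). The higher members were led by the secreted hormone gene *Stc1* and by *Ndrg1*. All 3 oxygen sensing genes were among them, of which only *Egln1* was higher by all its probes. From DoD 2 to DoD 8 in vehicle, 1 of 28 was higher (6.08% of genes) and 4 were lower (4.76%). From DoD 8 to DoD 36 in vehicle, 12 of 28 were lower (16.5% of genes), among them both glucose transporters, 5 of 11 measured glycolytic enzymes, *Ldha* and *Pdk1*, while 5 were higher (22.7%), all of them hypoxia response genes. On DoD 8 few members passed 2-fold with RA, and few of all genes did. In the map of all members by array, most transporter and enzyme rows (not *Hk1*, *Pfkm* and *Gapdh*) are lower on the last 3 arrays than on the DoD 8 arrays. The *Ndrg1*, *P4ha1*, *P4ha2* and *Adm* rows are above DoD 0 on every later array.

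**Figure D1:**
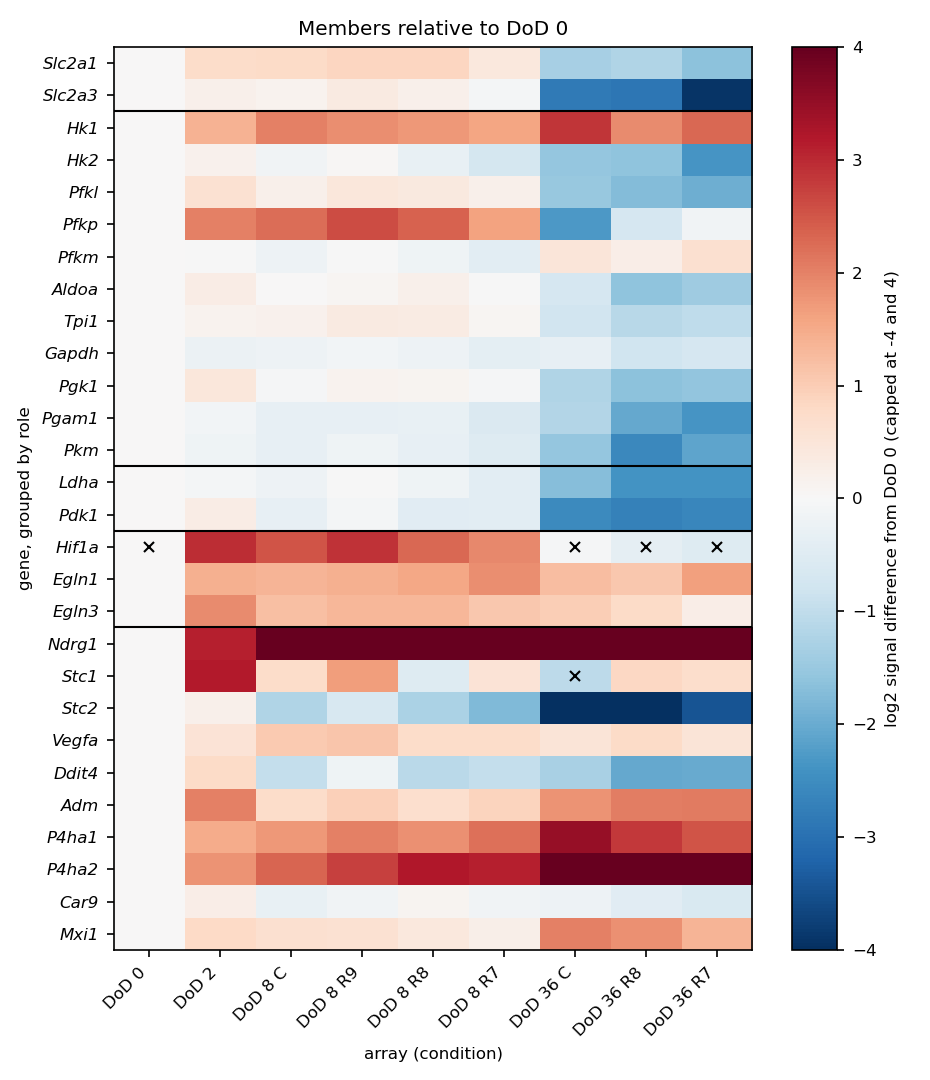
Log2 difference in scaled signal from DoD 0 (colour, capped at -4 and 4) for the 28 detected members (rows, grouped by role between the black lines) on the 9 arrays (columns). Crosses mark values below the detection level, drawn at that level. *Slc2a1*, *Slc2a3*, *Pkm*, *Ldha* and *Pdk1* are blue on the 3 DoD 36 arrays, while *Ndrg1* and *P4ha2* are red on all arrays after DoD 0.

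Glucose uptake was represented by *Slc2a1*, the transporter found on most cells, and *Slc2a3*, the high-affinity transporter of neurons and early embryos. *Slc2a1* had scaled signals of 10918 on DoD 0, 18126.5 on DoD 2, 18419.7, 19637, 19667 and 14561 on DoD 8 in C, R9, R8 and R7, and 4321, 4739 and 3495 on DoD 36 in C, R8 and R7. It was highest in EBs on DoD 2 and DoD 8, and all 3 DoD 36 arrays were below all others, with log2 differences from DoD 8 of -2.09 in C, -2.05 in R8 and -2.06 in R7. The *Slc2a3* signal was 18721 on DoD 0, 21415 on DoD 2, 20551, 23815, 21621 and 17826 on DoD 8 in C, R9, R8 and R7, and 2625, 2525 and 1230.2 on DoD 36 in C, R8 and R7. It stayed within 2-fold from DoD 0 through DoD 8 and was lower on DoD 36, with log2 differences from DoD 8 of -2.97, -3.10 and -3.86 in C, R8 and R7. On DoD 36 it was lower in R7 than in C (log2 difference -1.09) and than in R8 (-1.04), and both calls were lost with no scaling of the arrays.

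The first step of glycolysis is catalysed by hexokinases, *Hk1* being the form of brain and *Hk2* the form that HIF and insulin raise. *Hk1* signals were 1218 in mESCs on DoD 0 and 3192 in EBs on DoD 2, 4939 in C, 4371 in R9, 4041 in R8 and 3636 in R7 on DoD 8, and 8816 in C, 4499.8 in R8 and 5996 in R7 on DoD 36. It was lowest in mESCs and highest in the DoD 36 vehicle culture, and only the step from DoD 0 to DoD 2 passed 2-fold (log2 difference 1.39). Its probes did not move together, since on DoD 36 C against DoD 8 C the 3 of them lay between -1.43 and 2.12. *Hk2* was at 10625 on DoD 0, 11953 on DoD 2, 9596, 11035, 8692 and 6483 on DoD 8 in C, R9, R8 and R7, and 3624, 3502 and 2062.5 on DoD 36 in C, R8 and R7. Its signals to DoD 8 lay within 2-fold of each other, with the lowest in R7, and its level on DoD 36 was below that on DoD 8 in all 3 cultures (log2 differences -1.40, -1.31 and -1.65 in C, R8 and R7).

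Phosphofructokinase commits glucose to glycolysis and has liver (*Pfkl*), platelet (*Pfkp*) and muscle (*Pfkm*) type subunits, and these 3 genes followed different courses. *Pfkp* had signals of 1362 in mESCs on DoD 0 and 5506 in EBs on DoD 2, 6423 in C, 8302 in R9, 7022 in R8 and 4115 in R7 on DoD 8, and 279 in C, 859.9 in R8 and 1228 in R7 on DoD 36. It was 4.04-fold higher on DoD 2 than on DoD 0 (log2 difference 2.02), stayed high on DoD 8, and had the lowest late difference of the members in vehicle, -4.52 on the log2 scale, with -3.03 in R8 and -1.74 in R7. *Pfkl* signals were 8353.5 on DoD 0, 12760.2 on DoD 2, 9703, 11503.5, 10885 and 9714 on DoD 8 in C, R9, R8 and R7, and 2924, 2489 and 2169.7 on DoD 36 in C, R8 and R7. All 3 DoD 36 arrays were below all earlier ones, with log2 differences from DoD 8 of -1.73, -2.13 and -2.16 in C, R8 and R7. *Pfkm* was at 4758 on DoD 0, 4691 on DoD 2, 4160.2, 4724, 4179 and 3575 on DoD 8 in C, R9, R8 and R7, and 6708, 5733 and 7491.5 on DoD 36 in C, R8 and R7. Its 3 DoD 36 values were above its 6 earlier ones, the difference from DoD 8 passed 2-fold only in R7 (1.07), and the second *Pfkm* probe gave at most -3.12 there.

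The enzymes that follow split and oxidize the sugar phosphates. *Aldoa*, aldolase, was at 11109 on DoD 0, 13545 on DoD 2, 11232, 11757, 12723 and 11029.5 on DoD 8 in C, R9, R8 and R7, and 6941, 3661 and 4186 on DoD 36 in C, R8 and R7. Through DoD 8 it varied little, and the log2 difference of DoD 36 from DoD 8 was -0.69 in C but passed 2-fold in R8 (-1.80) and R7 (-1.40). *Tpi1*, triosephosphate isomerase, ran from 5754 on DoD 36 R8 to 15763 on DoD 8 R9, with late log2 differences of -0.95 in C, -1.44 in R8 and -1.12 in R7. A dimmer second *Tpi1* probe gave -2.35, -1.21 and -1.90 for the same steps. On DoD 36 R8 against C that probe was at 1.19 and the probe used at -0.34. *Gapdh*, the dehydrogenase often used as a reference gene, ranged from 7619 on DoD 36 R8 to 13255 on DoD 0 and, on the probe used, stayed within 2-fold in every comparison. The 5 *Gapdh* probes spread from -1.05 to -0.13 on DoD 36 C against DoD 8 C, from -1.73 to -0.60 in R8 and from -1.46 to -0.29 in R7. At least 2-fold lower were 1 probe in C, 2 in R8 and 2 in R7. The choice among the probes rests on levels that are lower bounds.

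*Pgk1*, the kinase of the first ATP-yielding step, had signals of 15285 in mESCs on DoD 0 and 20758 in EBs on DoD 2, 14652 in C, 16824 in R9, 16666 in R8 and 14940.5 in R7 on DoD 8, and 6649 in C, 4868 in R8 and 5085 in R7 on DoD 36. It was highest on DoD 2, and its late log2 differences were -1.14, -1.78 and -1.55 in C, R8 and R7. *Pgam1*, phosphoglycerate mutase, went from 409 on DoD 0 through 323 on DoD 8 C to 180.4, 100.1 and 80.1 on DoD 36 in C, R8 and R7, and R7 was below C by more than 2-fold (-1.17; -0.71 with no scaling). *Pkm*, pyruvate kinase, had signals of 19289 on DoD 0, 17221 on DoD 2, 15314, 16963, 15225 and 13536 on DoD 8 in C, R9, R8 and R7, and 6646, 3256 and 4496 on DoD 36 in C, R8 and R7. Every DoD 36 value was below every earlier one, with log2 differences from DoD 8 of -1.20, -2.23 and -1.59 in C, R8 and R7, and *Pkm* was also lower in R8 than in C on DoD 36 (-1.03; -0.72 with no scaling and -0.74 with quantile normalization).

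The fate of pyruvate was represented by *Ldha*, the lactate dehydrogenase subunit that favours lactate, and *Pdk1*, the kinase that shuts pyruvate dehydrogenase and so keeps pyruvate out of mitochondria. *Ldha* had scaled signals of 14831 on DoD 0, 14119.7 on DoD 2, 12756.5, 14680.3, 13038 and 10969.5 on DoD 8 in C, R9, R8 and R7, and 4522, 2836 and 2813 on DoD 36 in C, R8 and R7. *Pdk1* was at 5376 on DoD 0, 6671 on DoD 2, 4293, 5037.5, 3908 and 4010.5 on DoD 8 in C, R9, R8 and R7, and 912, 834 and 890.3 on DoD 36 in C, R8 and R7. Both had signals within 2-fold of each other to DoD 8 and lower ones on all 3 DoD 36 arrays. *Pdk1* was at -0.64 on DoD 8 C against DoD 2 (yardstick SD 0.15), and its dimmer second probe at -2.59. The late log2 differences in C, R8 and R7 were -1.50, -2.20 and -1.96 for *Ldha* and -2.23, -2.23 and -2.17 for *Pdk1*, so that *Pdk1* had nearly the same late difference in each culture.

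Oxygen sensing was represented by *Hif1a*, the oxygen-labile HIF subunit, and by *Egln1* and *Egln3*, prolyl hydroxylases that mark it for degradation and are HIF targets themselves. *Egln1* had signals of 569.6 on DoD 0, 1535 on DoD 2, 1466, 1527, 1657.5 and 2072 on DoD 8 in C, R9, R8 and R7, and 1348, 1204 and 1762 on DoD 36 in C, R8 and R7. It was low only in mESCs, and its 3 probes were between 1.17 and 1.56 on DoD 2 against DoD 0 on the log2 scale, with the probe used at 1.43. *Egln3* was at 1439 on DoD 0, 5353.5 on DoD 2, 3309.9, 3599.9, 3641 and 3022.5 on DoD 8 in C, R9, R8 and R7, and 2832, 2422 and 1737 on DoD 36 in C, R8 and R7. It was highest on DoD 2 (log2 difference 1.90 from DoD 0) and declined after it within 2-fold per step, while its second probe had -0.19 on DoD 2 and the mean of the probes gave 0.85, under 2-fold. *Hif1a* was seen by a probe without an accession that was detected on 5 of 9 arrays, at 257 on DoD 2 and 189.8, 247.5, 165 and 126 on DoD 8 in C, R9, R8 and R7, and this probe was below the detection level on DoD 0 and on the 3 DoD 36 arrays. The log2 differences were 2.94 or more on DoD 2 and -2.54, -2.65 and -2.41 or lower on DoD 36 in C, R8 and R7, but the *Hif1a* probe with a RefSeq accession was at the floor of the scale on all 9 arrays. The other probe was detected on 3 arrays, at 39.2 on DoD 8 C, 33.5 on DoD 8 R8 and 35.7 on DoD 36 C, with a late vehicle difference of -0.13, so these values concern that 1 probe only. HIF is controlled mainly through the stability of its protein, which arrays do not measure.

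*Ndrg1*, a gene raised by low oxygen and during differentiation, had the widest measured range of the hypoxia response genes in vehicle. Its scaled signal was 177 on DoD 0, 1537 on DoD 2, 4502, 3631, 3613 and 3231 on DoD 8 in C, R9, R8 and R7, and 9751, 4685 and 4802.5 on DoD 36 in C, R8 and R7. It rose at every step in vehicle, 8.67-fold to DoD 2, 2.93-fold to DoD 8 and 2.17-fold to DoD 36, or 3.12, 1.55 and 1.12 on the log2 scale, and it was the only member higher at all 3 steps. A second *Ndrg1* probe gave 3.11, 1.26 and 1.19 for the same steps, and the last step was 0.81 with quantile normalization. In the RA cultures the late step was within 2-fold (0.37 in R8 and 0.57 in R7), and on DoD 36 both RA arrays were lower than vehicle (log2 differences -1.06 in R8 and -1.02 in R7). With no scaling these became -0.75 and -0.56, and with quantile normalization -0.76 and -0.52, so the RA calls for *Ndrg1* depend on the scaling while the sign does not.

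*Stc1*, which encodes the secreted glycoprotein hormone stanniocalcin, peaked on DoD 2. Its signals were 67.7 on DoD 0, 606 on DoD 2, 112, 214, 47.0 and 99.5 on DoD 8 in C, R9, R8 and R7, and 5.6, 119 and 110.0 on DoD 36 in C, R8 and R7, and the DoD 36 vehicle value was at the floor of the scale. It was higher on DoD 2 than on DoD 0 by 3.16 on the log2 scale (8.94-fold), lower again on DoD 8 C (-2.44), and then lower on DoD 36 C (-1.78 or below). On DoD 36 it was detected in both RA cultures and not in vehicle, so R8 and R7 were higher than C by at least 1.87 and 1.76. All values after DoD 2 were between the floor and 214, where the yardstick SD was 0.393 to 0.577, and at a detection signal of 100 every *Stc1* difference after DoD 8 C against DoD 2 fell under 2-fold. *Stc2*, its paralog, was at 1159.8 in mESCs on DoD 0 and 1321.5 in EBs on DoD 2, 507.5 in C, 739.6 in R9, 484.5 in R8 and 341 in R7 on DoD 8, and 69.6 in C, 48.5 in R8 and 106 in R7 on DoD 36. It was lower on DoD 8 C than on DoD 2 (-1.38) and lower again on DoD 36 C (-2.87), was also lower late in R8 (-3.32) and R7 (-1.69), and its second probe gave -2.94 for the late step in C.

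**Figure D2:**
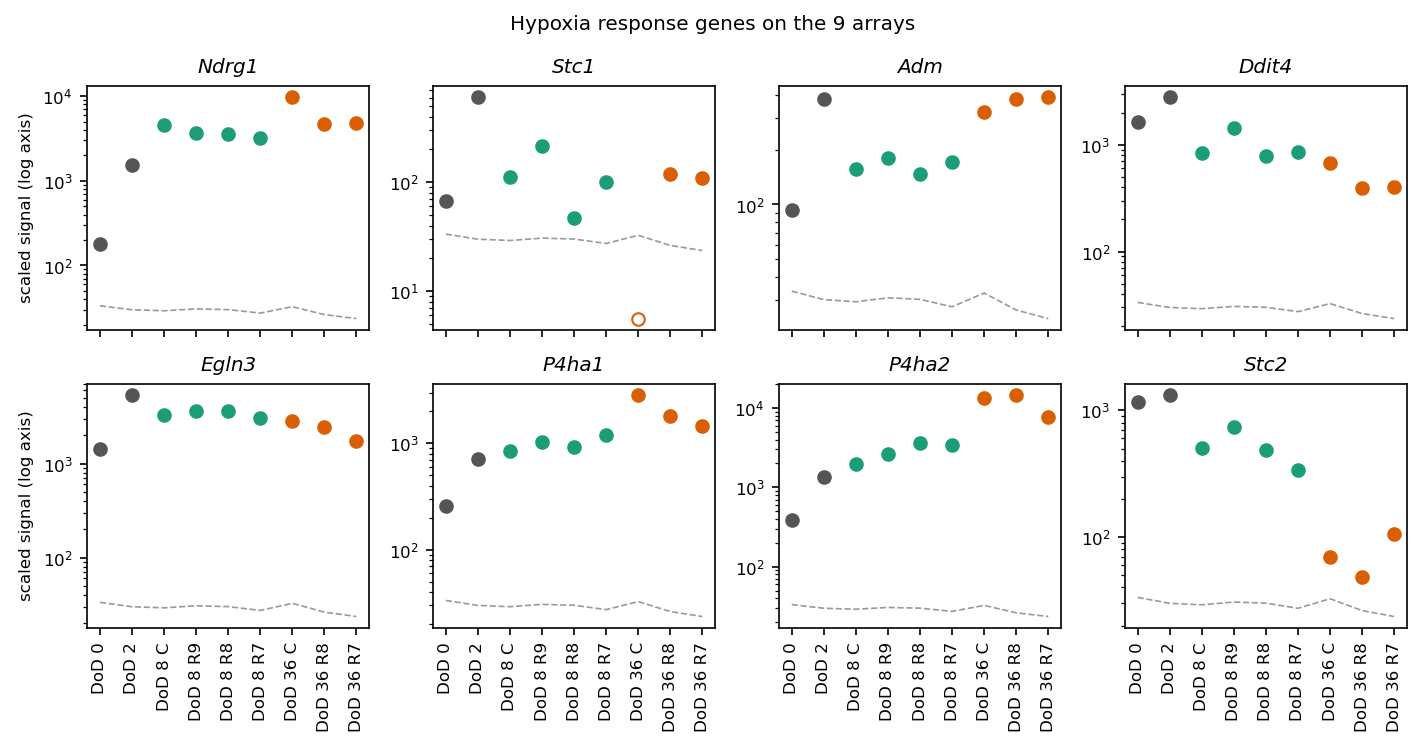
Scaled signal (log axis) of 8 hypoxia response and oxygen sensing genes on the 9 arrays, each point 1 array (grey, DoD 0 and DoD 2; green, DoD 8; orange, DoD 36). The open circle is below the detection level, which the dashed line gives. *Ndrg1*, *P4ha1* and *P4ha2* rise from DoD 0 to DoD 36, *Stc2* falls from DoD 2, and *Stc1* and *Ddit4* are highest on DoD 2.

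*P4ha1* and *P4ha2* encode the catalytic subunits of collagen prolyl hydroxylase, which makes collagen stable and needs oxygen. *P4ha2* had signals of 391 on DoD 0, 1365 on DoD 2, 1951, 2629, 3626 and 3377 on DoD 8 in C, R9, R8 and R7, and 13197, 14559.8 and 7657 on DoD 36 in C, R8 and R7. Each stage was above the one before in every culture, with 1.80 to DoD 2, and 2.76, 2.01 and 1.18 from DoD 8 to DoD 36 in C, R8 and R7 on the log2 scale. *P4ha1* was at 256 on DoD 0, 716.5 on DoD 2, 846, 1037, 919 and 1190.1 on DoD 8 in C, R9, R8 and R7, and 2849.5, 1804 and 1469.8 on DoD 36 in C, R8 and R7. It was higher by 1.48 on DoD 2 and by 1.75 on DoD 36 C, within 2-fold late in R8 (0.97) and R7 (0.30), and its second probe had the other sign for the late vehicle step (-0.77).

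Of the stress and vessel genes, *Adm*, the vasodilator peptide adrenomedullin, had signals of 92.8 on DoD 0, 379 on DoD 2, 156, 179.7, 147.5 and 171.5 on DoD 8 in C, R9, R8 and R7, and 322, 380.0 and 389 on DoD 36 in C, R8 and R7. It was high on DoD 2 and on all DoD 36 arrays and low on DoD 0 and DoD 8, with log2 differences of 2.03 to DoD 2, -1.28 to DoD 8 C and 1.05, 1.37 and 1.18 to DoD 36 in C, R8 and R7. *Ddit4*, an inhibitor of the growth kinase mTOR that stress and low oxygen raise, was at 1642 on DoD 0, 2795 on DoD 2, 843.5, 1445, 786 and 854 on DoD 8 in C, R9, R8 and R7, and 672, 398 and 406 on DoD 36 in C, R8 and R7. It was highest on DoD 2 and lower on DoD 8 C (-1.73). On DoD 8 the R9 array stood above the other 3 (0.78 against C, within 2-fold). The yardstick comes from these same R9 and C arrays, so it cannot gauge that difference. All 3 DoD 36 arrays were below all 4 DoD 8 arrays, with differences of -0.33, -0.98 and -1.07 in C, R8 and R7, and the last was -0.86 without scaling and -0.95 with the median of all probes. *Mxi1*, a Myc antagonist, ran from 89.9 on DoD 0 to 362.5 on DoD 36 C, and its late differences were 1.37, 1.40 and 1.14 in C, R8 and R7.

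*Vegfa*, the main growth factor of vessels, moved little. It went from 1119.5 on DoD 0 to 1651 on DoD 2 and 2310.2 on DoD 8 C and was 1588 to 1908 on DoD 36. *Car9*, a membrane carbonic anhydrase widely used as a marker of low oxygen, was between 47.1 and 87.1 on all 9 arrays, near the detection level. Together with *Gapdh* these were the 3 measured members within 2-fold in all 12 comparisons on the probes used. *Bnip3*, a mitochondrial receptor for autophagy, was at the floor on all 9 arrays through its 1 probe, so it has no value here.

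The step from DoD 0 to DoD 2 was the one with the most members higher and none lower. By role, 3 of 3 oxygen sensing genes, 5 of 10 measured hypoxia response genes and 2 of 11 glycolytic enzymes (*Pfkp* and *Hk1*) were at least 2-fold higher, and neither the transporters nor *Ldha* and *Pdk1* were. Only *Egln1* of the oxygen sensing genes was higher by all its probes. *Hif1a* counts through 1 probe without an accession that was not detected on DoD 0, and the second *Egln3* probe was at -0.19. The median log2 difference was 0.59 over the 28 members and -0.07 over all 12570 genes, with 1.14 for the hypoxia response genes and 0.17 for the enzymes. The count was 10 to 12 under the other scalings, detection level and probe rules, although *Egln3* was within 2-fold (0.85) with the mean of the probes. Related genes outside the list also had more members higher than lower at this step. Of 40 measured further hypoxia response and oxygen sensing genes, 11 were higher and none lower (median 0.40), led by *Ppp1r3c*, a glycogen-targeting phosphatase subunit (2.98), *Ccng2*, a cyclin raised on growth arrest (2.01), *Vhl*, which recognizes hydroxylated HIF (at least 1.95), and *Lox*, a collagen cross-linking oxidase (1.57). Of 28 further glycolysis and linked enzymes, 8 were higher and none lower (median 0.24), led by *Pygl*, glycogen phosphorylase (2.62), *Aldoc*, the aldolase of brain (2.28), *Pgm1*, phosphoglucomutase (1.67), and *Ldhc* (at least 1.51).

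Among the cell type lists, heart and skeletal muscle genes had 6 of 9 measured higher at this step (median 1.52) and endoderm genes 3 of 5 (median 1.47). Proliferation genes (median -0.15, 0 of 11 past 2-fold) and pluripotent genes (median 0.14, 1 of 9 higher) stayed close to their DoD 0 levels. Integrated stress response genes had a median of -0.34 with 1 of 15 lower. In bulk RNA, more cells of a type and more RNA per cell cannot be told apart, and the part of cell composition in the rise of the members was not tested.

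Between DoD 2 and DoD 8 in vehicle, the hypoxia response genes parted. *Ndrg1* rose further, while *Stc1*, *Stc2*, *Ddit4* and *Adm* were at least 2-fold lower, and no transporter, enzyme or oxygen sensing gene passed 2-fold in either direction. The median log2 difference was -0.17 over the members and -0.03 over 12808 genes. Of the 10 members higher on DoD 2, *Stc1* and *Adm* were lower again on DoD 8 C, *Ndrg1* was higher again and the other 7 stayed within 2-fold. The further hypoxia list had 2 of 40 higher and 3 lower (median 0.01), and the further glycolysis list 3 of 28 higher and 1 lower (median -0.04).

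From DoD 8 to DoD 36 both glucose transporters, *Ldha*, *Pdk1* and 5 of 11 glycolytic enzymes were at least 2-fold lower in each of the 3 cultures, which share no arrays with each other, while *Hk1* and *Pfkm* were above 0 in each and *Pfkm* passed 2-fold upwards in R7 (1.07). At least 2-fold lower were 12 of 28 members in C, 14 of 28 in R8 (14.7% of 13410 genes) and 15 of 28 in R7 (14.5% of 13400), and at least 2-fold higher were 5, 4 (18.2% of genes) and 4 (17.6%). The medians were -0.77, -1.15 and -1.09 over the members against 0.12, 0.00 and 0.00 over all genes. Lower in all 3 cultures were 11 of 28 members (39.3%), against 1079 of 12200 genes (8.84%): *Slc2a1*, *Slc2a3*, *Hk2*, *Pfkl*, *Pfkp*, *Pgk1*, *Pkm*, *Ldha*, *Pdk1*, *Hif1a* through 1 probe, and *Stc2*. Among these, the vehicle difference was within 2-fold for *Pgk1* with the median of all probes (-0.92), for *Pkm* with the median of all probes and with the mean of the probes (-0.99 in both), and for *Hif1a* at a detection signal of 100 (-0.76). Higher in all 3 were *Adm*, *P4ha2* and *Mxi1*, 3 of 28 (10.7%) against 9.46% of genes. All 3 DoD 36 arrays were below all 4 DoD 8 arrays for 16 of 28 members (57.1%), against 20.4% of 14607 genes, and above them for 6 of 28 (21.4%) against 22.8%.

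**Figure D3:**
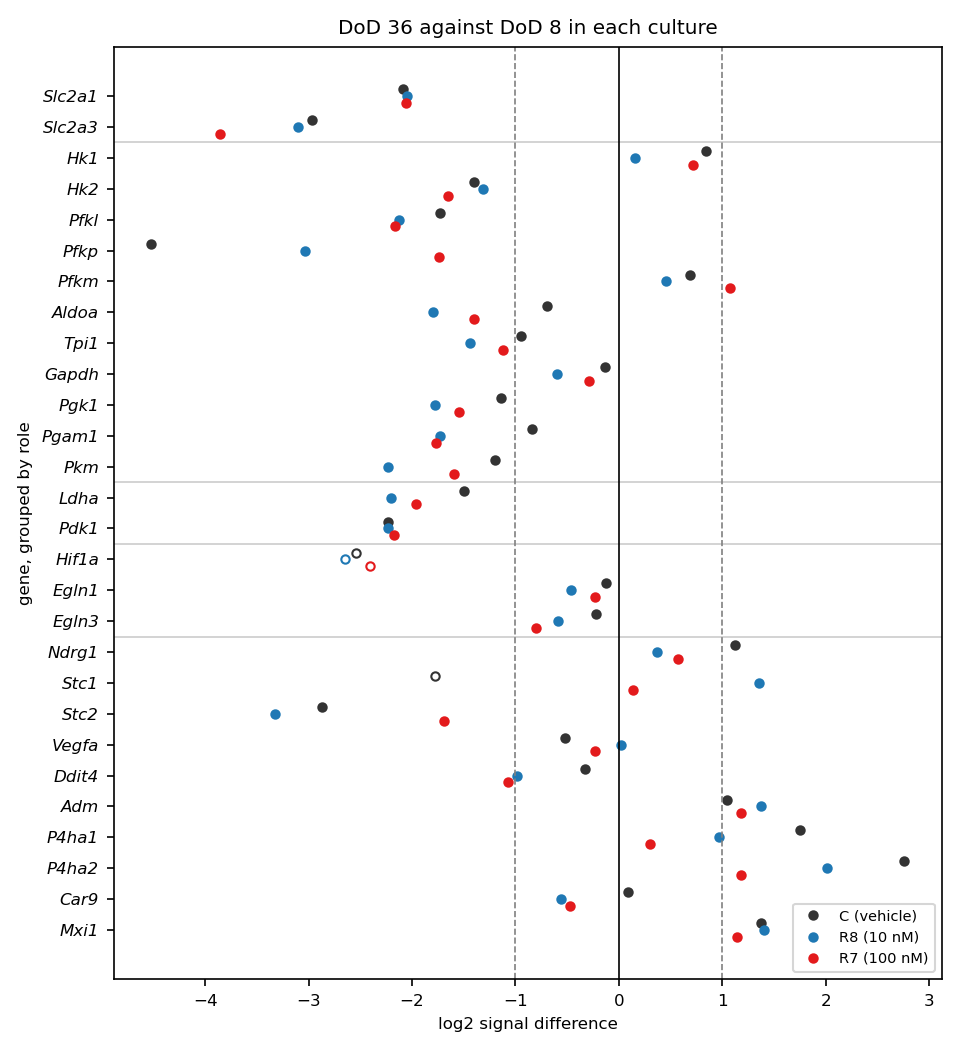
Log2 difference in scaled signal of DoD 36 from DoD 8 for each member (rows, grouped by role) in the vehicle (black), 10 nM (blue) and 100 nM (red) cultures, 1 array each. Open circles are bounds and dashed lines mark 2-fold. *Slc2a1*, *Slc2a3*, *Hk2*, *Pfkl*, *Pfkp*, *Pgk1*, *Pkm*, *Ldha* and *Pdk1* lie left of the lower dashed line in all 3 cultures, while *Adm*, *P4ha2* and *Mxi1* lie right of the upper one.

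By role, the late fall took both transporters (median -2.53 in C), *Ldha* and *Pdk1* (median -1.86), and 5, 8 and 8 of 11 enzymes in C, R8 and R7 (medians -0.95, -1.73 and -1.55). *Hk1*, *Pfkm* and *Gapdh* were the enzymes that passed 2-fold downwards in none of the 3 cultures on the probes used. The hypoxia response genes had 5, 4 and 3 of 10 higher and 2, 1 and 2 lower, so the members did not move as 1 group. Counts of lower members were 10 to 14 in C, 13 to 15 in R8 and 13 to 16 in R7 under the alternatives, and counts of higher members were 3 to 6, 3 to 5 and 3 to 4.

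Further genes of the same pathways were mixed at the late step in vehicle. Of 27 further glycolysis and linked enzymes, 5 were higher and 7 lower (median -0.71). The largest rises were *Pdk2*, a second kinase of pyruvate dehydrogenase (2.67), *Eno2*, the enolase of neurons (1.63), *Pygb*, the glycogen phosphorylase of brain (1.46), and *Pfkfb2* (1.44). The largest falls were *Ldhc*, a lactate dehydrogenase of testis (-2.93 or below), *Pfkfb3*, which makes the activator of phosphofructokinase (-2.50), *Aldoc* (-1.81) and *Pdk3* (-1.53). Of 40 further hypoxia genes, 11 were higher and 7 lower (median 0.15), with *Epas1*, the HIF alpha subunit of vessels, higher by at least 4.58, *Vldlr*, a lipoprotein receptor, at 3.09, and the collagen lysyl hydroxylases *Plod1* and *Plod2* at 2.24 and 2.05. *Ak4*, a mitochondrial adenylate kinase, was at -4.94, *Sap30*, a corepressor subunit, at -4.44, and *Hif3a*, a HIF alpha subunit, at -3.80.

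Other gene groups moved at the same step. Proliferation genes had 10 of 11 lower in each culture (medians -3.14, -2.61 and -2.06 in C, R8 and R7), and their summed scaled signal went from 54140 to 76221 on the 4 DoD 8 arrays to 7883 to 12713 on the 3 DoD 36 arrays. In C, pluripotent genes had 7 of 9 lower and 1 higher, *Klf4* (median -4.73). Endoderm genes had 6 of 8 higher (median 4.55) and neuron genes 6 of 9 (median 2.04), with none lower. Endothelium and blood genes had 5 of 8 higher and 1 lower, *Pecam1* (median 1.66). Integrated stress response genes had 9 of 15 higher and 1 lower (median 1.54). Of all genes, 22.7% were higher and 16.5% lower in C. The widely expressed control genes had 1 of 8 higher and 3 lower (median -0.30). The part of these groups in the lower glycolytic genes was not tested. Plating and medium also changed between DoD 8 and DoD 36 in every culture, and their part cannot be told apart from that of the stage.

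Few members passed 2-fold with RA on DoD 8, and the counts are too small to set the members apart from all genes. The R9, R8 and R7 arrays are each set against the same C array, so a value of C that is off moves all 3. Of 28 members, 0 passed 2-fold in R9 (2.18% of genes higher and 1.50% lower), 1 was lower in R8 (3.20% higher, 2.08% lower), and 0 passed in R7 (5.58% higher, 3.47% lower). The 1 call was *Stc1* at -1.25 in R8, with R9 at 0.93 and R7 at -0.17, at signals of 47.0 to 214 where the yardstick SD was 0.393 to 0.577. The medians in R9, R8 and R7 were 0.19, 0.02 and -0.18 over the members and 0.05, 0.03 and -0.05 over all genes. Above 0 were 25 of 28 members in R9 and 15 of 28 in R8, and 20 of 28 were below 0 in R7. The member medians lay within the interquartile range of all genes, which was -0.16 to 0.24 in R9 and -0.31 to 0.25 in R7. Their size depended on the processing, while the signs in R9 and R7 did not. With quantile normalization the member medians were 0.09 in R9 and -0.08 in R7, and with the mean of the probes 0.20 and -0.23. Below the call, *P4ha2* was higher in all RA arrays (log2 differences 0.43, 0.89 and 0.79 in R9, R8 and R7), and *Pfkp* was 0.37, 0.13 and -0.64.

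Between the 2 higher doses on DoD 8, R7 against R8 had 1 of 28 members higher (3.73% of genes), again *Stc1* at 1.08, and 0 lower (2.70%). The members had a median of -0.18 against -0.07 over all genes, and the member median was -0.05 with no scaling and -0.03 with quantile normalization. The members furthest below 0, all within 2-fold, were *Pfkp* at -0.77, *Stc2* at -0.51 and the transporter *Slc2a1* at -0.43. On the same R7 array against C, pluripotent genes had 7 of 9 lower (median -1.12) and mesenchyme and cartilage genes 6 of 8 higher (median 2.00), and the further hypoxia list had 4 of 40 higher and none lower, *Igfbp3*, a growth factor binding protein (1.79), *Car12*, a carbonic anhydrase (1.46), *Epas1* (at least 1.33) and *Lox* (1.21).

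On DoD 36, long after the exposure, members passed 2-fold between RA and vehicle at shares no higher than those of all genes, with small counts. Most of these calls depended on the scaling of the arrays. In R8 against C, 2 of 27 members were higher (11.2% of genes) and 2 lower (8.57%), and in R7 against C 2 of 27 were higher (12.7%) and 3 lower (12.3%). Both doses again share 1 vehicle array. Higher at both doses were *Pfkp*, at 1.62 in R8 and 2.14 in R7, and *Stc1*, whose bounds are given above. Lower were *Ndrg1* at both doses, *Pkm* in R8, and *Slc2a3* and *Pgam1* in R7. The members had medians of -0.23 in R8 and -0.43 in R7, and all genes had -0.15 and -0.28.

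**Figure D4:**
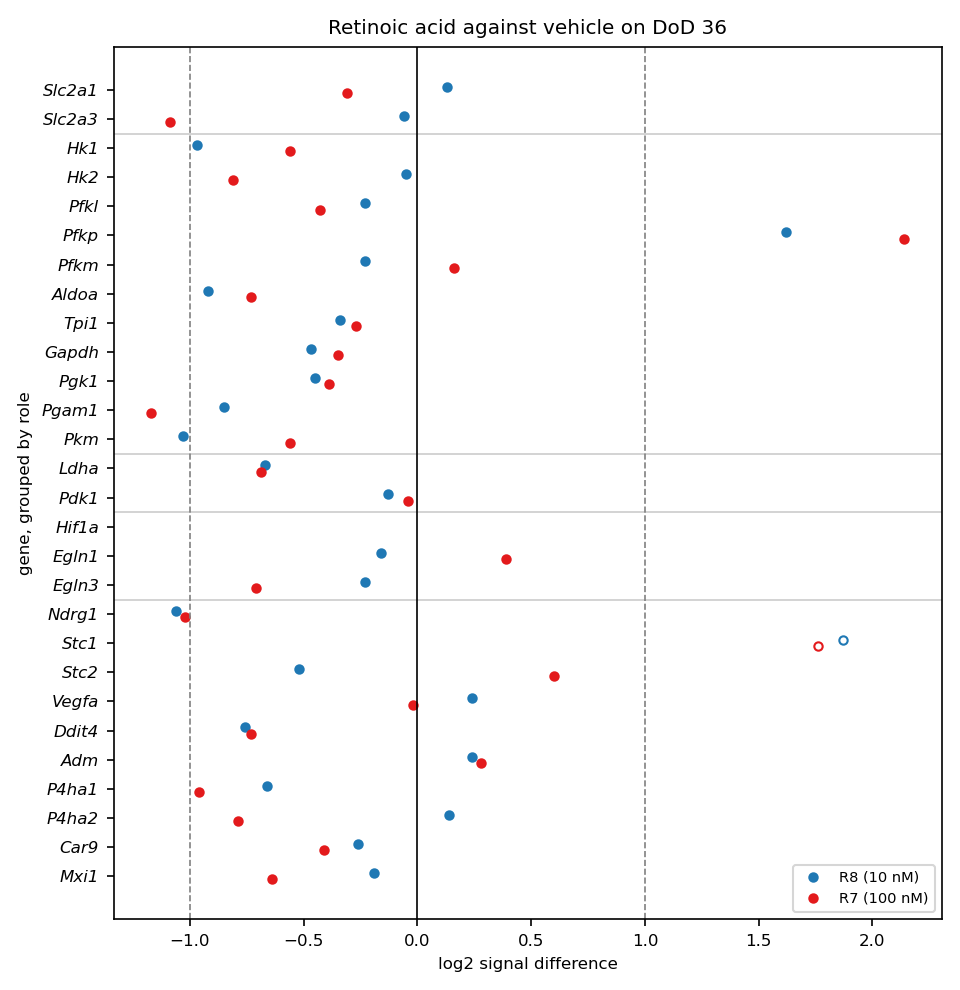
Log2 difference in scaled signal of the RA arrays from the vehicle array on DoD 36 for each measured member (rows, grouped by role), 10 nM in blue and 100 nM in red. Both doses share the vehicle array, open circles are bounds and dashed lines mark 2-fold. *Pfkp* and *Stc1* lie right of the upper dashed line at both doses, and most other members lie between the dashed lines, left of 0.

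*Pfkp* on DoD 36 was at 279 in C, 859.9 in R8 and 1228 in R7, against 4115 to 8302 on the DoD 8 arrays. Its second probe was at the floor in C and at 354 in R8 and 48.4 in R7, which gives at least 3.44 and 0.57. Another probe gave at least 1.30 in R8 and no direction in R7. A further one, detected in C only, gave at most -0.34 and -0.50, and averaging the probes gave 0.55 in R7. Without scaling, no member was lower at either dose and the member medians were 0.08 and 0.03, while with the deposited log2 values as they stand 6 members were lower at each dose. The all-gene median over genes detected on both arrays moved with them, from -0.20 to 0.10 without scaling in R8 and from -0.34 to 0.12 in R7, and the numbers of genes higher and lower went from 1454 and 1114 to 2073 and 496 in R8 and from 1657 and 1603 to 2546 and 453 in R7. With the deposited values they were 1092 and 2005 in R8 and 1372 and 2772 in R7. These scalings shift all genes of an array by the same amount. The place of *Pfkp* and *Stc1* relative to the all-gene median is therefore the same under each of them by construction.

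Of the further genes of these pathways, *Aldoc* had the largest RA differences on DoD 36, while the median of its list was near 0. *Aldoc* went from 449 in C to 2591 in R8 and 7113 in R7 (2.53 and 3.98 on the log2 scale). The further glycolysis list had 5 of 27 higher and 2 lower in R8 (median 0.00) and 4 of 28 higher and 1 lower in R7 (median -0.01). Of all genes, 11.2% were higher and 8.57% lower in R8, and 12.7% higher and 12.3% lower in R7. *Slc2a4*, the glucose transporter of muscle and fat, was below the detection level in C and higher by at least 1.20 and 2.12. In R8, *Fbp2* (1.62) and *Pgam2* (1.42) were higher and *Gys1*, glycogen synthase (-1.27), and *Slc2a8* (-1.08) lower, and in R7, *Ldhb* (1.10) and *Pfkfb3* (1.06) were higher and *Taldo1*, transaldolase (-1.04), lower.

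The further hypoxia list had 5 of 40 higher and 6 lower in R8 (median -0.17) and 9 of 42 higher and 10 lower in R7 (median -0.07). The shares of all genes are those given above for the further glycolysis list. *Lox* was at 2.18 in R8 and 3.50 in R7, *Cxcr4*, a chemokine receptor, at 1.61 and 2.80, and *Ppp1r3c* at 1.49 and 2.31. *Ak4* was among the higher genes in R8 (1.56) and *Igfbp3* in R7 (2.14). On the lower side, *Zfp395* was at -1.88 and -2.03 or below, and *Hmox1*, heme oxygenase, was at -1.39 and -1.87. In R8, *Loxl2* (-1.49) and *Kdm4b* (-1.37) and in R7, *Hilpda*, a lipid droplet protein (-1.79), and *Vldlr* (-1.65) followed.

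Cell type lists moved with RA on DoD 36 too. Astrocyte genes, a list that includes *Aldoc*, had 6 of 7 higher in R8 (median 2.13) and 6 of 8 in R7 (median 3.55), with a summed scaled signal of 8434 in C, 16213 in R8 and 47317 in R7. Mesenchyme and cartilage genes had 5 of 8 higher in R8 (median 1.34) and 6 of 8 in R7 (median 3.36). Proliferation genes had 3 of 10 higher and 1 lower in R8 (median 0.46) and 6 of 10 higher in R7 (median 1.23). Endoderm genes had 1 of 8 lower in R8 (median -0.50) and 6 of 8 in R7 (median -1.49). Neuron genes had 3 of 10 higher in R8 (median 0.78) and 4 of 10 lower and 1 higher in R7 (median -0.46), and heart and skeletal muscle genes 4 of 8 higher and 1 lower in R8 (median 0.58) and 5 of 6 lower in R7 (median -1.79). Integrated stress response genes had 3 of 15 lower and 1 higher in R8 (median -0.43) and 6 of 15 lower and 1 higher in R7 (median -0.88). Their part in the RA differences of the members was not tested.

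R7 against R8 on DoD 36 differed in *Stc2*, higher in R7 by 1.12 at signals of 48.5 and 106, and in *Slc2a3*, lower in R7 (-1.04). On the probes used, these were the 1 of 27 members higher (7.67% of genes) and the 1 lower (7.23%). With the mean of the probes, 0 were higher and 3 lower. Other probes gave -2.87 and -1.73 for *Pfkp* (0.51 on the probe used) and -4.20 or below for *Pfkm* (0.39). Other *Hk1* probes were at 1.31 and at -1.49 or below (0.41 on the probe used). The median was 0.03 over the members and -0.10 over all genes. At a detection signal of 100 the *Stc2* difference was 0.23. Just under the call were *P4ha2* at -0.93 and *Hk2* at -0.76.

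Where a gene had several probes, most told the same story and a few did not. *Ndrg1*, *Egln1*, *Stc2* and *Pgk1* had probes with the same sign at the late vehicle step, while *Hk1*, *Pfkm* and *P4ha1* had probes on both sides of 0. With the mean of the probes, *P4ha1* was at 0.49 at that step. *Hk1* had 1 probe higher and 1 lower by over 2-fold there. For *Pfkp*, 3 of the 4 measured probes were lower, with a bound of -6.04 for the lowest, and the fourth, detected on DoD 36 C only, gave 0.19. Values of *Hk1*, *Pfkm*, *P4ha1* and *Hif1a*, the rise of *Egln3* on DoD 2 and the RA difference of *Pfkp* in R7 therefore rest on the probe used. So do the late vehicle calls of *Pkm* and *Tpi1* and the late values of *Gapdh* within 2-fold.

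**Figure D5:**
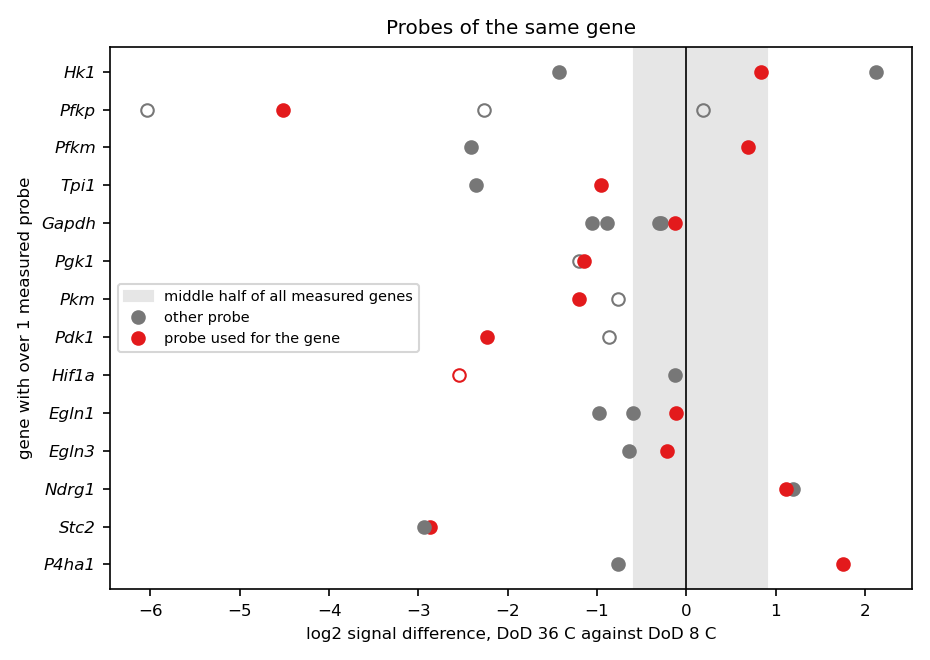
Log2 difference in scaled signal of DoD 36 C from DoD 8 C for every measured probe (points) of the 14 members with over 1 measured probe (rows). Red points are the probe used for the gene, grey points the other probes, open circles are bounds, and the grey band is the interquartile range of all measured genes (-0.59 to 0.90). The *Ndrg1* and *Stc2* probes nearly coincide, while those of *Hk1*, *Pfkp*, *Pfkm* and *P4ha1* spread widely.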

How the data were processed

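Total RNA of 9 conditions of G6B-2 mESCs was measured on Illumina MouseWG-6 arrays, 1 array per condition. By the paper's methods, 6 biological replicates were mixed per condition and signals were median centred in GeneSpring GX 10.02. The values deposited by the authors are log2 values, each the log2 signal plus a constant of its array minus a baseline of its probe. A second deposited table was not used, because its 9 columns of signals carry names that match no sample.

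Signals were recovered as whole steps above the floor of the scale (50 steps, a signal of 5.0), with the step set to 0.1 by convention, so that signals have an arbitrary unit. For 1141 of 46643 probes (2.45%) the level is a lower bound. A probe was called detected at 29.1, the 0.99 quantile of the signal of background probes (the median of 9 arrays), and arrays were scaled to the median of the 16146 probes detected on all 9 arrays. Probes were named through GEO's platform annotation, updated by gene identifier: 32794 probes had 1 symbol, 55 several and 13794 none. A gene was represented by its probe of highest mean log2 signal, and a difference with 1 array below detection entered as a bound. With no replicates there are no p-values, and a call is a difference of at least 2-fold. The precision is limited by the number of arrays.

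The members and lists were chosen with earlier results of these data known. All members are named. Of each further list, up to 4 genes per direction with the largest difference past 2-fold were named. Alternatives were the deposited log2 values as they stand, no scaling, quantile normalization, scaling to the median of all probes, a detection signal of 100 and the mean of a gene's probes. The recovery was tested on simulated data. Promoters were RefSeq's, GRCm38.p6. Python 3.11.15, numpy 2.4.6, pandas 2.3.3 and numba 0.67.0 were used. The labels name ethanol as vehicle, and the series text another solvent.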

Additional observations from a re-analysis of the deposited data

Results flagged for a closer look

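*Stc1* moved in opposite directions in cultures or stages under the same contrast, and neither difference was tested, since each condition was 1 array. From DoD 8 to DoD 36 it was lower in vehicle, at -1.78 or below on the log2 scale, and higher in the 10 nM culture, at 1.35. The 10 nM array was below vehicle on DoD 8, at -1.25, and above it on DoD 36, at 1.87 or more. The DoD 36 vehicle value was at the floor of the scale, the other values lay between 47.0 and 119, and at a detection signal of 100 these differences were 0.00, 0.21, -0.11 and 0.09.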

How the results depend on the processing

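In 10 of the 12 comparisons the member median moved by less than the yardstick SD of 0.297 under all 6 alternatives, although medians near 0 changed sign (R8 against C on DoD 8, -0.12 to 0.04, and R7 against R8 on DoD 36, -0.15 to 0.18). With no scaling, the median of DoD 36 R8 against C was 0.08 (-0.23 as reported) and that of R7 against C was reversed, at 0.03 (-0.43 as reported), and quantile normalization gave -0.05 for R7. These 2 arrays had the highest background, and the cause was not tested. Of 82 gene differences past 2-fold, 81 stayed past it with the deposited values, 72 with no scaling, 77 with quantile normalization, 77 with the median of all probes, 72 at a detection signal of 100 and 75 with the mean of the probes. *Pfkm* in R7, DoD 36 against DoD 8, was reversed by the mean of the probes, at -1.02. Counts of members that moved by over 1.5 times were those lower in R8 (0 to 6 against 2) and R7 (0 to 6 against 3) and higher (1 to 3 against 2 in each) on DoD 36, R7 against R8 on DoD 36 (0 to 1 higher, 0 to 3 lower, against 1 and 1), DoD 36 C against DoD 8 C (3 higher against 5 with no scaling), and on DoD 8 R8 (0 lower against 1), R7 (1 lower against 0) and R7 against R8 (0 higher against 1). No paired analysis was possible because each condition has 1 array. Members at low signal (*Car9*, *Stc1*, *Hif1a* and late *Stc2*) are limited by signal over background.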
